A study of Mus musculus with 12 samples.

Results

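The 9 genes described here are targets of the tumour suppressor p53 or genes of growth arrest: Cdkn1a, Mdm2, Ccng1, Phlda3, Bax, Gadd45a, Gadd45b, Trp53inp1 and Btg2. They were chosen by symbol from the 55359 genes counted in mouse liver, and all 9 were found and passed the filter on low counts. Each library is the liver of 1 male C57BL/6NTac mouse, in 3 groups of 4. NM-FGF19 mice ate a high-fat diet and were injected weekly for 6 weeks with lipid nanoparticles carrying mRNA for a non-mitogenic form of the gut hormone FGF19. HFD control mice ate the same diet and received a control mRNA, and their columns carry the name of mouse OX40L. Lean mice ate normal chow and also received a control mRNA, so that all 3 groups had mRNA particles. Tissue was collected 24 hours past the final injection, after 21 weeks of diet before dosing and 28 weeks of feeding in all. An age of 24 weeks is given, without saying at which point, and no dose. The samples are bulk tissue, so a change in the cells present and a change in RNA per cell cannot be told apart.

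The protein p53 is a transcription factor that is held at a low level by MDM2, a ligase that marks it for destruction. When DNA is damaged or a cell is stressed, p53 accumulates and switches on genes that stop the cell cycle, repair DNA or start cell death. In liver, several of these genes also answer to other signals, among them glucocorticoids, inflammatory cytokines, feeding and the daily clock. Cdkn1a, Btg2 and Gadd45b are such genes, and their mRNAs turn over quickly.

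The 12 libraries held 23743415 to 33257260 counts, and HFD control libraries were the deepest at 32284438 to 33257260. Levels are CPM, counts scaled to 1000000 per library and by trimmed mean of M-values (TMM) factors of 0.779 to 1.17, and a floor of 3 counts equals 0.0792 to 0.153 CPM. Hepatocyte markers summed to 98056 to 139773 CPM in NM-FGF19 livers, 59232 to 80393 CPM in HFD control livers and 94256 to 146885 CPM in lean livers. Changes are log2 fold changes ± SE from edgeR, and adjusted p-values are over the 15274 genes tested, with a threshold of 0.05. Of all genes, DESeq2 called 1.87% for NM-FGF19 against HFD control, 14.5% for HFD control against lean and 6.34% for NM-FGF19 against lean. The edgeR shares were 0.432%, 8.33% and 1.49%, so calls by DESeq2 below are read beside its own, larger shares. Lean 3 stood apart on these genes. It was the highest lean library for 8 of the 9, against 31.4% of all genes tested. For 5 of the 9 its gap to the next lean library exceeded Dixon's limit, against 3.12% of all genes. The changes of the 9 genes against lean livers are therefore given with and without it.

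Among the growth arrest genes, Cdkn1a encodes p21, the inhibitor of cyclin-dependent kinases through which p53 halts the cycle before DNA replication. Its level was 10.4, 3.08, 6.46 and 8.14 CPM in NM-FGF19 livers 1 to 4, 21.9, 15.1, 40.7 and 8.44 CPM in HFD control livers 1 to 4, and 2.16, 7.80, 259 and 34.6 CPM in lean livers 1 to 4. Lean livers alone spanned a 120-fold range, and lean 3 was 33.2 times the median of the other 3 lean mice. All 3 groups overlapped. The change was −1.62 ± 1.15 for NM-FGF19 against HFD control (adjusted p = 0.76), −1.81 ± 1.14 for HFD control against lean (adjusted p = 0.368) and −3.43 ± 1.22 for NM-FGF19 against lean (adjusted p = 0.187). Without lean 3 the change of HFD control against lean took the opposite sign, at 0.56 ± 0.83 (adjusted p = 0.75), and that of NM-FGF19 against lean was −1.06 ± 0.83 (adjusted p = 0.607). DESeq2 called the change of NM-FGF19 against lean with all 12 libraries (adjusted p = 0.0326), in a range of 0.0326 to 0.707 over the alternatives.

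Btg2, an antiproliferative gene whose product recruits the machinery that shortens mRNA tails, had the same high library. It was at 23.5, 24.3, 20.01 and 24.7 CPM in NM-FGF19 livers, 11.9, 16.4, 32.9 and 13.2 CPM in HFD control livers, and 11.6, 14.5, 199 and 37.0 CPM in lean livers. The NM-FGF19 mice lay within a 1.24-fold range, while the lean mice spanned 17.2-fold. The change was −1.81 ± 0.79 for HFD control against lean (adjusted p = 0.189) and −0.15 ± 0.43 without lean 3. For NM-FGF19 against lean it was −1.497 ± 0.79 (adjusted p = 0.374) and 0.15 ± 0.43 without lean 3.

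Gadd45b and Gadd45a encode small stress sensors that bind a kinase upstream of p38 and JNK. Gadd45b had 1.09, 1.31, 0.54 and 2.44 CPM in NM-FGF19 livers, 2.14, 1.54, 5.47 and 2.76 CPM in HFD control livers, and 0.55, 0.98, 11.8 and 2.01 CPM in lean livers. HFD control 3 and lean 3 were the highest of their groups. The change of HFD control against lean was −0.35 ± 0.82 (adjusted p = 0.833), but 1.37 ± 0.59 without lean 3 (adjusted p = 0.191). Its relative Gadd45a did not share the pattern. Gadd45a ranged from 4.23 to 6.89 CPM in NM-FGF19 livers, 1.85 to 5.23 CPM in HFD control livers and 2.24 to 5.73 CPM in lean livers, where lean 3 was the lowest. NM-FGF19 against HFD control was 0.72 ± 0.36 (adjusted p = 0.598), with a 95% interval of −0.05 to 1.496.

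**Figure D1:**
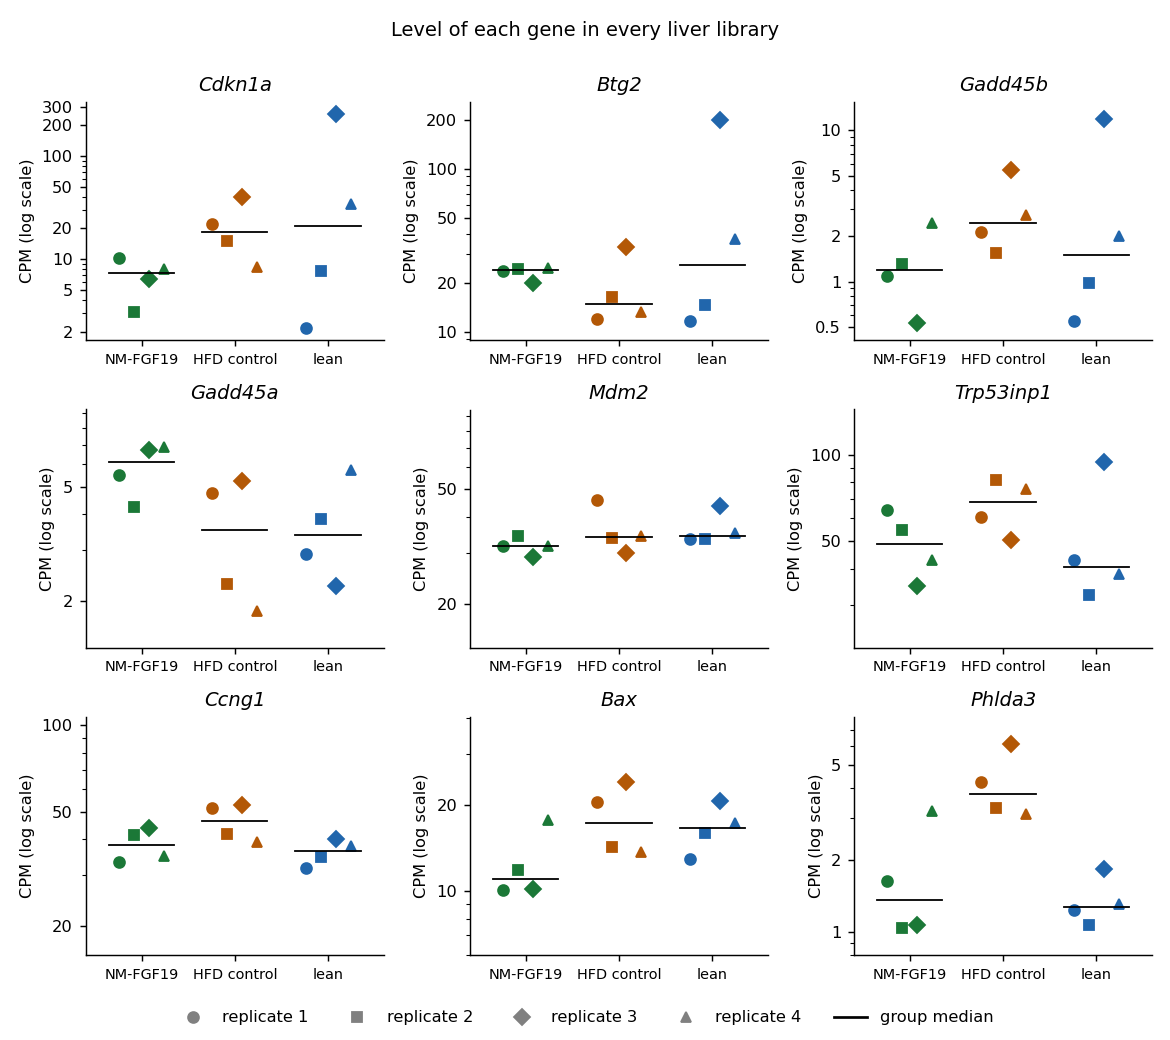
CPM (log axis) of the 9 genes in each library, by group, with a symbol for each replicate number and a bar at the group median. Lean 3 (blue diamond) is at 259 CPM for Cdkn1a, 199 CPM for Btg2 and 11.8 CPM for Gadd45b, above the 11 other libraries in each case, while the Phlda3 points of HFD control livers all lie above those of lean livers.

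The stretches upstream of the start sites of these 3 genes are shown with that of Phlda3, the one gene of the 9 that passed a test. They are the 250 bases before the RefSeq start on build GRCm38.p6 and were matched by symbol, since the counts were made on mm39. RefSeq starts were matched for 8 of the 9 genes, and for Cdkn1a the more upstream of its 2 starts is shown, since the other had 0 matches. Capitals mark matches, on either strand, to the p53 half-site, to the E-box CACGTG, to the cyclic AMP response element TGACGTCA or to the TATA box TATAAA.
Cdkn1a, chr17:29090729-29090978, plus strand: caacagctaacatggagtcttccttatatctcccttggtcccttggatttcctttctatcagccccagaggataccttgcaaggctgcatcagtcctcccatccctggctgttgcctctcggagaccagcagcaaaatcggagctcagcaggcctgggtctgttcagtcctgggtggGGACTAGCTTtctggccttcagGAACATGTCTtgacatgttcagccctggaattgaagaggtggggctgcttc
Btg2, chr1:134079156-134079405, minus strand: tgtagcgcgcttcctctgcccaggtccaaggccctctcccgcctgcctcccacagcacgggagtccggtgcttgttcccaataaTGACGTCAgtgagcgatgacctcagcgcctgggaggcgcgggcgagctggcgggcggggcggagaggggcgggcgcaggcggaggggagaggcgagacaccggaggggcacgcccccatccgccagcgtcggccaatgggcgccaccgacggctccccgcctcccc
Gadd45b, chr10:80929841-80930090, plus strand: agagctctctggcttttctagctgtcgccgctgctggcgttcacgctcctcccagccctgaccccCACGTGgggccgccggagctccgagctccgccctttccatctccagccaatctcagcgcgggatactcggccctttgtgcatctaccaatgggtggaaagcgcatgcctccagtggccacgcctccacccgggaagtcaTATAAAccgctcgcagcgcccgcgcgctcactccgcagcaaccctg
Phlda3, chr1:135765835-135766084, plus strand: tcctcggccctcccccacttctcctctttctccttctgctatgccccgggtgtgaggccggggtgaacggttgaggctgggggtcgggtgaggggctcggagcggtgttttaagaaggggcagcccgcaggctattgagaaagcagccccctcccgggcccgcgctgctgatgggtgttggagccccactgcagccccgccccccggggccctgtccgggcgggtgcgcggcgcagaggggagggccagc
In Cdkn1a both capital stretches are p53 half-sites, which begin 73 and 51 bases before the start. Such a half-site was present in 7.13% of 32851 stretches of this length, which were not picked for their matches as the Cdkn1a stretch was. Among the genes not printed, Mdm2, Ccng1, Bax and Gadd45a each had 1. In Btg2 the match is the cyclic AMP response element, found in 1.55% of all stretches. In Gadd45b they are an E-box, found in 6.02%, and a TATA box, found in 12.4%. No match to the 4 motifs lies in the Phlda3 window. A match is a description of letters and does not show binding.

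Phlda3 was the member that rose on the high-fat diet. It encodes a small pleckstrin-homology protein that competes with the kinase AKT for membrane lipids and so restrains AKT. Its level was 1.64, 1.04, 1.07 and 3.20 CPM in NM-FGF19 livers, 4.23, 3.30, 6.09 and 3.13 CPM in HFD control livers, and 1.23, 1.07, 1.84 and 1.31 CPM in lean livers. The HFD control and lean groups did not overlap, and NM-FGF19 4 alone of its group reached the HFD control range. Phlda3 rose 3.08-fold in HFD control against lean livers, a log2 change of 1.62 ± 0.38 (95% interval 0.81 to 2.43, adjusted p = 0.0214, higher in 4 of 4 mice). It was the 1 of 9 that passed upward there, beside 5.04% of all genes, and the 1 of 9 whose groups lay apart upward, beside 8.4% of all genes. A count of 1 among 9 is too coarse to be read against those shares. The call was lost without HFD control 3 (adjusted p = 0.0644), lean 2 (0.0613) or lean 4 (0.0542), and without both lean 3 and HFD control 3 (0.06), at log2 changes of 1.39 to 1.62. The adjusted p was 0.000695 to 0.0644 over all alternatives. In NM-FGF19 against HFD control livers the change was −1.26 ± 0.37, with an unadjusted p of 0.0042 and an adjusted p of 0.224. DESeq2 (0.0449) and limma with sample quality weights (0.0226) called it lower, in a range of 0.0226 to 0.568 over the alternatives. In NM-FGF19 against lean livers it was 0.36 ± 0.38 (adjusted p = 0.693).

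Markers of other cells moved with Phlda3. Of 12 markers of recruited or lipid-associated macrophages, 7 rose, 1 fell and 4 did not pass in HFD control against lean livers. They summed to 160 to 392 CPM in NM-FGF19 livers, 265 to 638 CPM in HFD control livers and 145 to 505 CPM in lean livers. Of 8 stellate cell markers, 4 rose and 0 fell. Those summed to 299 to 886 CPM in NM-FGF19 livers, 420 to 1047 CPM in HFD control livers and 191 to 247 CPM in lean livers. No listed gene of either kind was at 0 in a whole group. In each group 1 library was highest for Phlda3, for the macrophage sum and for the stellate sum, namely NM-FGF19 4, HFD control 3 and lean 3. Of the 8 stellate markers, 7 were themselves highest in NM-FGF19 4 and 6 in HFD control 3. In lean 3 only 2 were highest and 2 were lowest, and Dcn at 140 CPM made up most of the sum. Of the 12 macrophage markers, 10, 10 and 6 were highest in these libraries in turn. The same libraries were highest for the sums of cholangiocyte markers (120, 127 and 279 CPM), neutrophil markers (28.4, 22.5 and 76.8 CPM), cell cycle genes (189, 215 and 133 CPM) and other p53 pathway genes (875, 917 and 911 CPM), so the match was not particular to macrophage and stellate markers. In lean 3 the p53 pathway sum held Plk3 at 161 CPM, against 14.5 to 32.1 CPM in the other lean libraries. The cell cycle sum there held Rrm2 at 34.8 CPM, against 3.28 to 7.64 CPM. Without that gene, neither sum was the highest among lean libraries. Spp1 is on the macrophage and the cholangiocyte list, so those sums are not separate. Kupffer cell markers went down, with 6 of 8 lower and 0 higher in HFD control against lean livers. They summed to 373 to 850 CPM in NM-FGF19 livers, 335 to 653 CPM in HFD control livers and 910 to 1211 CPM in lean livers. Their part in the Phlda3 result was not tested.

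Mdm2, the ligase that is both a target and the brake of p53, ranged from 29.0 to 34.3 CPM in NM-FGF19 livers, 29.9 to 46.1 CPM in HFD control livers and 33.5 to 43.8 CPM in lean livers. NM-FGF19 against HFD control was −0.18 ± 0.14, with a 95% interval of −0.49 to 0.12 (adjusted p = 0.781). HFD control against lean was −0.02 ± 0.14, with an interval of −0.32 to 0.28 (adjusted p = 0.949). Trp53, the gene of p53 itself, averaged 29.0 ± 2.91 CPM in NM-FGF19 livers, 28.2 ± 3.09 CPM in HFD control livers and 27.1 ± 8.17 CPM in lean livers (SD, n = 4 each). Its largest change of the 3 comparisons was 0.10 ± 0.18 (adjusted p = 0.838), in NM-FGF19 against lean livers. These are mRNA levels, while p53 is mainly controlled as a protein.

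Ccng1 encodes cyclin G1, which brings a phosphatase to MDM2. It was at 33.5 to 43.8 CPM in NM-FGF19 livers, 39.3 to 52.9 CPM in HFD control livers and 31.9 to 40.1 CPM in lean livers. HFD control against lean was 0.36 ± 0.13 (adjusted p = 0.114), and only the lowest HFD control library fell within the lean range. It passed with library totals as the only scaling (0.69, adjusted p = 0.00753) and with sample quality weights (0.40, adjusted p = 0.0493). With totals alone the median of all genes in this comparison moved up by 0.31. NM-FGF19 against HFD control was −0.27 ± 0.13 (adjusted p = 0.593).

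Trp53inp1 encodes a stress protein that acts in p53 signalling and in autophagy. It was at 64.2, 54.8, 34.8 and 42.9 CPM in NM-FGF19 livers, 60.6, 81.4, 50.3 and 76.2 CPM in HFD control livers, and 42.9, 32.5, 94.0 and 38.4 CPM in lean livers. Apart from lean 3, lean livers all lay below HFD control livers. HFD control against lean was 0.37 ± 0.31 (adjusted p = 0.515). Without lean 3 it was 0.85 ± 0.22 and passed (adjusted p = 0.0439), and without both lean 3 and HFD control 3 it was 0.96 ± 0.21 (adjusted p = 0.0367). The adjusted p was 0.0367 to 0.766 over the alternatives.

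Bax, whose protein opens pores in the outer mitochondrial membrane during cell death, was at 10.1, 11.8, 10.1 and 17.7 CPM in NM-FGF19 livers, 20.4, 14.2, 24.0 and 13.7 CPM in HFD control livers, and 13.0, 16.0, 20.6 and 17.3 CPM in lean livers. In NM-FGF19 livers 3 of 4 values lay below every HFD control and lean value. NM-FGF19 against HFD control was −0.54 ± 0.23, with an unadjusted p of 0.0343 and an adjusted p of 0.501. NM-FGF19 against lean was −0.42 ± 0.23 (adjusted p = 0.38).

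**Figure D2:**
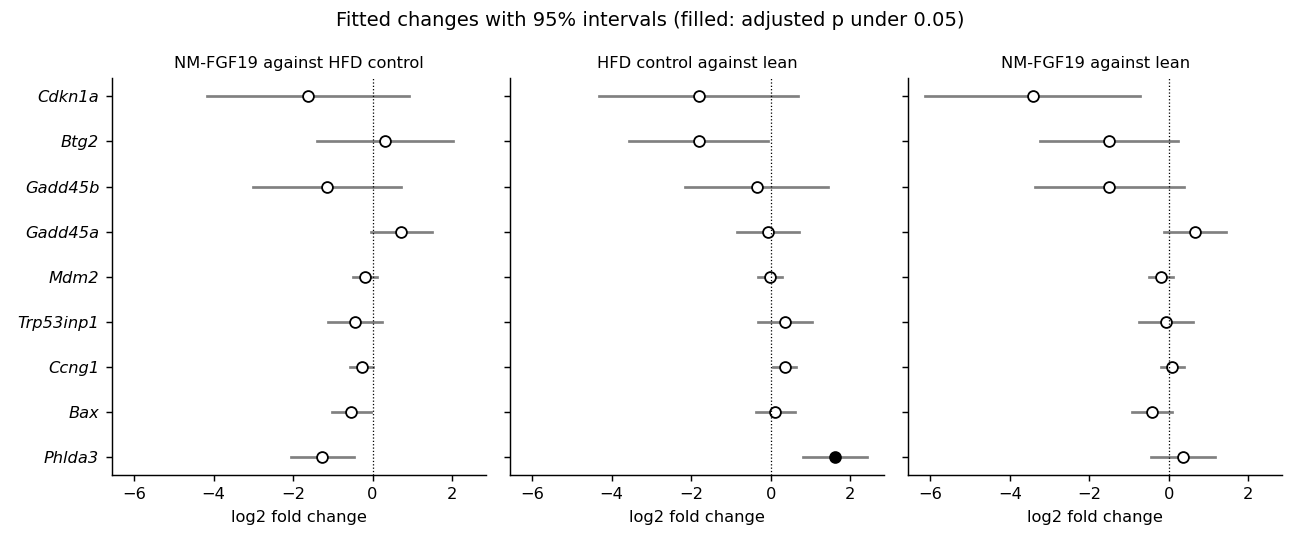
Log2 fold changes of the 9 genes in the 3 comparisons, with 95% intervals and points filled where the adjusted p was under 0.05. The 1 filled point is Phlda3 in HFD control against lean livers at 1.62; intervals are widest for Cdkn1a, Btg2 and Gadd45b.

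Counts over the 9 genes are read beside the share of all genes. In NM-FGF19 against HFD control livers, 0 rose and 0 fell in edgeR, beside 0.432% of all genes called (0.282% higher, 0.151% lower). Without adjustment 2 of them, Phlda3 and Bax, had p under 0.05, both lower. DESeq2 called 1, also lower, beside 1.87% of all genes, and limma voom 0, beside 0.334%. The fitted change was negative for 7 of 9, with a median of −0.45 against −0.00046 for all genes. In none of the 9 did the groups lie apart, beside 5.62% of all genes (3.23% upward, 2.38% downward). Against lean livers, 0 of 9 passed in edgeR, beside 1.49% of all genes (1.01% higher, 0.484% lower), and 0 of 9 had groups that lay apart, beside 10.3% (5.46% upward, 4.84% downward). Cdkn1a alone, lower, had an unadjusted p under 0.05. It was the 1 gene called by DESeq2, beside 6.34% of all genes, and limma voom called 0, beside 0.733%. The median was −0.20 against −0.01 for all genes with all 12 libraries. Without lean 3 it took the opposite sign, at 0.16 against 0.01 for all genes. In HFD control against lean livers, 1 rose, 0 fell and 8 did not pass, beside 8.33% of all genes called in either direction and 3.29% downward. Groups lay apart for 15.3% of all genes in either direction and 6.89% downward, against 1 and 0 of the 9. There the median was −0.02 against −0.02 for all genes with all 12 libraries. Without lean 3 it was 0.43 against 0.007 for all genes, and 7 of the 9 changes were positive. Then 2 passed upward and 0 downward, beside 6.11% of all genes called in the 2 directions together. The same 4 HFD control libraries stand in 2 of these comparisons, which are therefore not independent.

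The comparisons not yet given did not pass. NM-FGF19 against HFD control was 0.31 ± 0.77 for Btg2 (adjusted p = 0.959), −1.14 ± 0.85 for Gadd45b (0.775) and −0.45 ± 0.31 for Trp53inp1 (0.745). HFD control against lean was 0.11 ± 0.23 for Bax (adjusted p = 0.803) and −0.06 ± 0.36 for Gadd45a (0.938). NM-FGF19 against lean was 0.09 ± 0.13 for Ccng1 (adjusted p = 0.795), −0.20 ± 0.14 for Mdm2 (0.507), −0.08 ± 0.31 for Trp53inp1 (0.931), 0.66 ± 0.36 for Gadd45a (0.382) and −1.497 ± 0.86 for Gadd45b (0.415). Without lean 3, HFD control against lean was 1.82 ± 0.41 for Phlda3 (adjusted p = 0.0265), 0.43 ± 0.14 for Ccng1, 0.10 ± 0.14 for Mdm2, 0.25 ± 0.24 for Bax and −0.21 ± 0.37 for Gadd45a. NM-FGF19 against lean was then 0.54 ± 0.41 for Phlda3, 0.16 ± 0.14 for Ccng1, −0.09 ± 0.14 for Mdm2, −0.29 ± 0.24 for Bax, 0.51 ± 0.37 for Gadd45a, 0.22 ± 0.59 for Gadd45b and 0.39 ± 0.22 for Trp53inp1. Phlda3 and Trp53inp1 in HFD control livers were the 2 that passed without lean 3, and 0 of 9 passed in NM-FGF19 against lean livers.

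**Figure D3:**
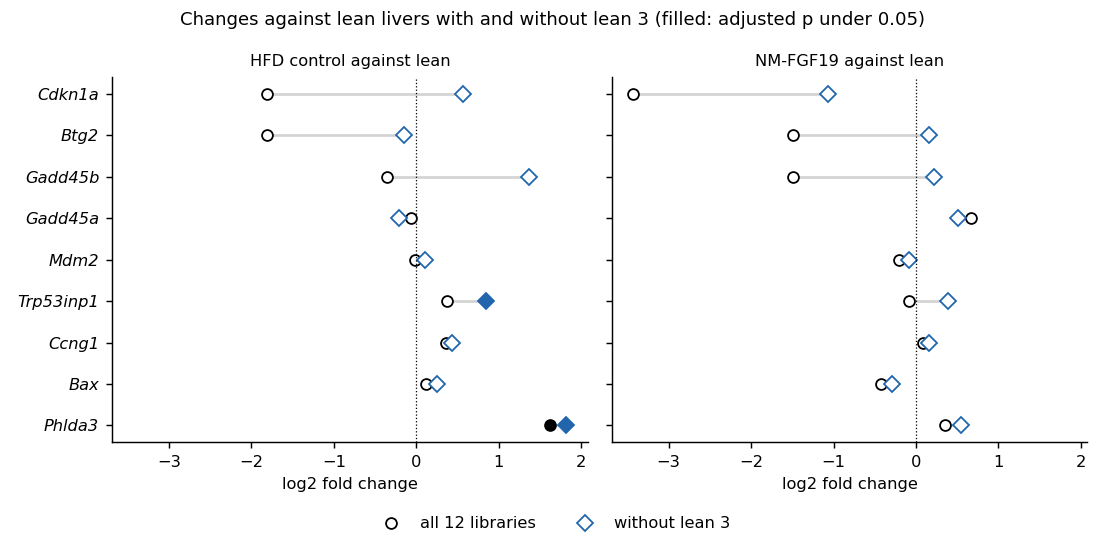
Log2 fold changes of the 9 genes against lean livers, for HFD control (left) and NM-FGF19 (right), with all 12 libraries (circles) and without lean 3 (diamonds), filled where the adjusted p was under 0.05. Cdkn1a in HFD control livers is at −1.81 with lean 3 and 0.56 without it, whereas Phlda3 is at 1.62 and 1.82.

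Per kilobase of exon (GENCODE M21 lengths, on GRCm38), Ccng1 had the highest mean in both high-fat groups, but not in every liver. It led in 2 of 4 NM-FGF19 livers and 1 of 4 HFD control livers, and Trp53inp1 or Bax led in the others. In NM-FGF19 livers Ccng1 had 10.9 ± 1.40 CPM per kilobase (RPKM; SD, n = 4), followed by Btg2 at 8.44 ± 0.784, Bax at 7.89 ± 2.30 and Trp53inp1 at 7.59 ± 2.00 RPKM. The ranges of 1 SD around these last 3 overlapped, and that of Ccng1 overlapped those of Bax and Trp53inp1. Mdm2 had 6.24 ± 0.428, Gadd45a 3.31 ± 0.701, Cdkn1a 1.97 ± 0.865, Phlda3 1.11 ± 0.65 and Gadd45b 0.846 ± 0.504 RPKM. In HFD control livers Ccng1 had 13.2 ± 1.93, Bax 11.5 ± 3.16 and Trp53inp1 10.4 ± 2.21 RPKM, with overlapping ranges of 1 SD, and the lowest were Gadd45a at 2.00 ± 0.969 and Gadd45b at 1.87 ± 1.09 RPKM. In lean livers the means of Btg2, 23.8 ± 32.6 RPKM, and Cdkn1a, 21.3 ± 34.6 RPKM, were carried by lean 3, at 72.4 and 72.8 RPKM. Over the other 3 lean livers Btg2 had 7.67 ± 5.06 and Cdkn1a 4.18 ± 4.87 RPKM, below the means of Ccng1 at 9.92 ± 0.849 and Bax at 9.78 ± 1.40 RPKM (SD, n = 3). Phlda3 had 0.874 ± 0.213 RPKM over all 4.

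The steadiness of the genes differed within groups as well. In NM-FGF19 livers the coefficient of variation was 6.86% for Mdm2, 9.3% for Btg2 and 12.8% for Ccng1, against 43.8% for Cdkn1a, 58.3% for Phlda3 and 59.5% for Gadd45b. In HFD control livers Cdkn1a varied by 64.6%, and in lean livers by 162%. Over the 12 libraries, Cdkn1a in log2 CPM had a Pearson r of 0.85 with Gadd45b, 0.79 with Btg2 and 0.68 with Bax. Without lean 3 these were 0.71, 0.46 and 0.67. Phlda3 and Bax had 0.63 and, without lean 3, 0.69. Gadd45a and Trp53inp1 had −0.67. These values describe 12 libraries from 3 groups and carry no test. Of the 12764 named genes averaging 1 CPM or more, the patterns most like Cdkn1a over the 12 libraries were those of Rtn4rl2 (r = 0.94), Tgm2 (0.94) and P4ha2 (0.93), which were at 0.88, 0.88 and 0.86 without lean 3. Tgm2 averaged 139, 189 and 268 CPM in NM-FGF19, HFD control and lean livers.

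Other lists were also high in lean 3. Glucocorticoid-induced genes summed to 13515 CPM in lean 3, against 3597 to 8013 CPM in the other lean libraries, and 8 of the 10 were highest there. The exceptions, Tsc22d3 and Pck1, lay within the range of the other lean libraries. Tsc22d3 was at 35.9 CPM, against 28.2 to 113 CPM, and Pck1 at 3031 CPM, against 1475 to 5075 CPM. Of 13 immediate early genes tested, 10 were highest in lean 3, and the list summed to 465 CPM there and to 600 CPM in lean 4, against 217 CPM in each of lean 1 and lean 2. Clock genes went both ways. Of 15, 5 were highest in lean 3, beside 31.4% of all genes, and 6 were lowest, beside 5218 of all 15274. Nfil3 was at 124 CPM, against 15.0 to 60.5 CPM, and Dbp at 4.79 CPM, against 6.99 to 135 CPM. Their sum of 587 CPM lay within the 487 to 1080 CPM of the other lean libraries, but a sum hides opposite changes. Neutrophil markers summed to 76.8 CPM in lean 3, against 21.9 to 40.9 CPM in the other lean libraries. Cholangiocyte markers summed to 279 CPM, against 53.9 to 109.7 CPM, and recruited macrophage markers to 505 CPM, against 145 to 257 CPM. Spp1 is on both lists and was at 252 CPM in lean 3, against 46.2 to 85.3 CPM, so the sums are not separate. Of 5 cholangiocyte markers tested, 2 were highest and 2 lowest in lean 3. Of 12 macrophage markers, 6 were highest and 1 lowest. Hepatocyte markers summed to 146885 CPM, against 94256 to 114154 CPM, and stellate markers to 247 CPM, against 191 to 219 CPM. Of 11 hepatocyte markers, 7 were highest and 1 lowest in lean 3. Fgb was at 24852 CPM there, against 6523 to 11426 CPM, and Hp at 21233 CPM, against 6172 to 10411 CPM. Ttr was at 3638 CPM, against 4322 to 6236 CPM. Tat, on the hepatocyte and glucocorticoid lists, was at 3155 CPM, against 736 to 1727 CPM. Per1, on the glucocorticoid and clock lists, was at 76.2 CPM, against 4.55 to 75.5 CPM. These lists are therefore not separate either. Of 8 stellate markers, 2 were highest and 2 lowest. The adipocyte list summed to 226 CPM there, against 1268 to 2246 CPM. In lean 3 that sum was Car3 alone, so it does not describe adipocyte markers as a set. Lymphocyte markers summed to 6.37 CPM, against 9.05 to 10.5 CPM. In the 3 comparisons the glucocorticoid, immediate early and clock lists had 0 called in edgeR and limma voom. Before adjustment 5 glucocorticoid-induced genes were lower in NM-FGF19 against lean livers, and over the 3 comparisons in turn 2, 4 and 1 immediate early genes and 1, 2 and 1 clock genes differed. DESeq2 called 1, 3 and 0 immediate early genes, 0, 0 and 1 glucocorticoid-induced genes and 0, 0 and 1 clock genes. Among other p53 pathway genes 11 of 33 were highest in lean 3, beside 31.4% of all genes, and 8 were lowest. The part of any of these in the Cdkn1a, Btg2 and Gadd45b values was not tested.

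Of 34 further genes of the p53 pathway, 33 were tested. In NM-FGF19 against HFD control livers 0 passed, with 4 lower and 0 higher before adjustment. DESeq2 called 1 of them, lower, and limma voom 0. The median was −0.10. In HFD control against lean livers 2 rose, 1 fell and 30 did not pass, a share near the 8.33% of all genes called, with a median of 0.07, against −0.02 for all genes. Eda2r, for a receptor of the ectodysplasin ligand EDA-A2, rose by 2.03 ± 0.42 (adjusted p = 0.0135). It was at 0.61, 1.27, 0.87 and 1.55 CPM in NM-FGF19 livers, 4.41, 1.80, 4.06 and 2.64 CPM in HFD control livers, and 0.86, 0.37, 1.22 and 0.70 CPM in lean livers, so that HFD control livers lay above all the others. Against HFD control livers, NM-FGF19 livers were at −1.58 ± 0.40 (adjusted p = 0.141). Psrc1, for a spindle protein, rose by 1.90 ± 0.54 (adjusted p = 0.0469), at 0.796 ± 0.398 CPM in HFD control and 0.207 ± 0.136 CPM in lean livers. Lean 2 and lean 4 held 2 counts each, under the floor of 3 counts, so the size of the rise rests partly on values below it. The Psrc1 call was lost in 6 of the 8 fits without 1 library, those without HFD control 1, 3 or 4 or lean 2, 3 or 4 (adjusted p up to 0.145). Ercc5, for a nuclease of nucleotide excision repair, had a log2 change of −0.60 ± 0.16 and fell (adjusted p = 0.0353), at 16.0 ± 2.67 CPM in HFD control and 24.4 ± 3.46 CPM in lean livers. Its call was lost without HFD control 1, 3 or 4 or lean 1, 2 or 3 (adjusted p up to 0.0912), and with library totals alone it was −0.29. In NM-FGF19 against lean livers 0 passed in edgeR, with 4 lower and 1 higher before adjustment. DESeq2 called 2, both lower, and limma voom 0.

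Relatives of the 9 genes were measured beside them. Of 13 kinase inhibitors and BTG, TOB and GADD45 relatives tested, 0 passed in each of the 3 comparisons in edgeR, with 1 higher and 1 lower in each before adjustment. For these DESeq2 called 0 for NM-FGF19 against HFD control, 1 lower for HFD control against lean and 1 higher for NM-FGF19 against lean, and limma voom called 0. Of 13 BCL2 family genes, Bcl2, which opposes BAX, rose in HFD control against lean livers by 1.03 ± 0.25 (adjusted p = 0.0271), at 3.20 ± 0.851 CPM in HFD control and 1.57 ± 0.0634 CPM in lean livers. That is 1 of 13 upward, beside 5.04% of all genes, and too coarse a count to be read against it. Its call was lost without HFD control 3 or lean 1, 2 or 4 (adjusted p up to 0.0851). The other 12 did not pass there, and 0 of 13 passed in each comparison with NM-FGF19, beside 0.432% of all genes against HFD control and 1.49% against lean. Before adjustment, 1 was lower against HFD control and 2 were higher against lean. DESeq2 called 0 and 1 of them, and limma voom 0 and 0.

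Of 24 cell cycle genes tested, 13 rose, 0 fell and 11 did not pass in HFD control against lean livers, beside 5.04% of all genes higher, with a median of 1.28. Markers of recruited macrophages (7 of 12) and stellate cells (4 of 8) rose in the same comparison, and their part in the cell cycle counts was not tested. Mcm5, for a subunit of the replication helicase, rose by 2.01 ± 0.22 (adjusted p = 0.00141), at 9.39 ± 2.24 CPM in HFD control and 2.33 ± 0.244 CPM in lean livers. In NM-FGF19 against lean livers 5 rose and 0 fell, beside 1.01% of all genes higher, with a median of 0.83, among them Mcm6 by 1.502 ± 0.24 (adjusted p = 0.0122), at 11.8 ± 3.11 CPM in NM-FGF19 and 4.17 ± 0.787 CPM in lean livers. Without lean 3 the counts were 12 and 5. In NM-FGF19 against lean livers, without NM-FGF19 4 or lean 4 the count was 2, without lean 2 it was 3, and limma voom called 2 and DESeq2 11. The shares of all genes called there were 0.733% in limma voom and 6.34% in DESeq2. In NM-FGF19 against HFD control livers 0 passed in edgeR, with 1 lower before adjustment and 0 in DESeq2 and limma voom, and the median was −0.37.

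**Figure D4:**
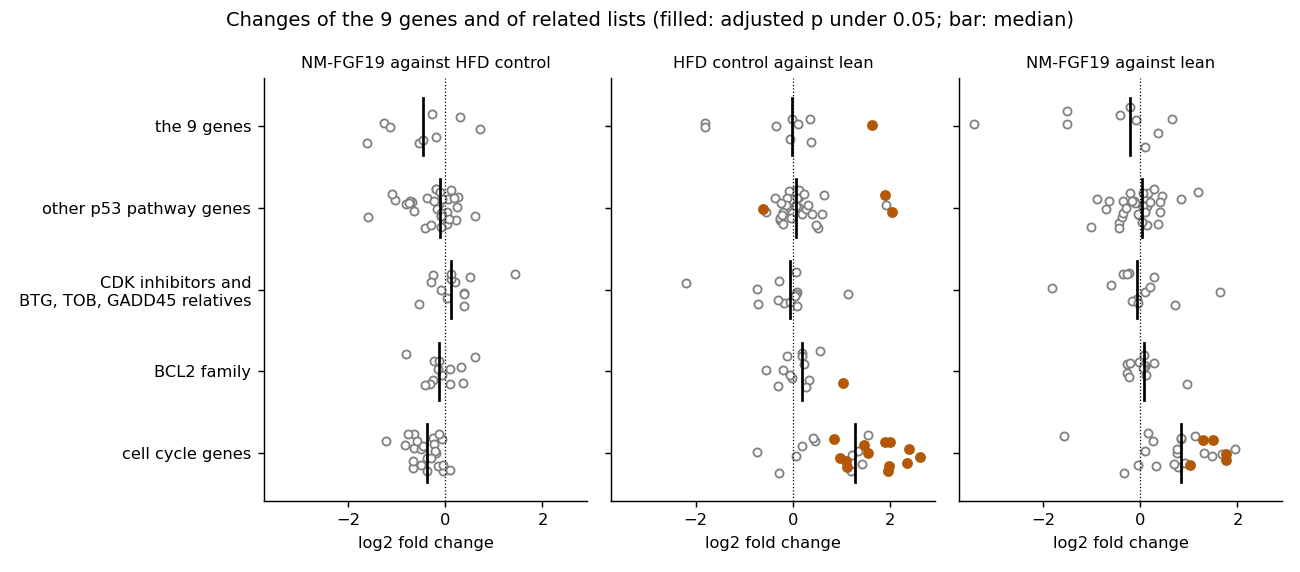
Log2 fold change of each tested gene (points, filled where the adjusted p was under 0.05) on 5 lists in the 3 comparisons, with a bar at the median, all with lean 3 included. In HFD control against lean livers 13 of 24 cell cycle genes are filled, against 1 of 9, 3 of 33, 0 of 13 and 1 of 13 on the other lists.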

How the data were processed

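Liver RNA of 12 mice was sequenced as read pairs of 101 nt using a stranded mRNA kit and 100 ng of RNA, per the labels. The deposited table holds raw read counts for 55359 genes. The authors' tools were Trimmomatic, STAR and featureCounts and the build mm39, per the submitters' processing notes. No source used here gives their versions, the gene annotation or the strand setting, so genes overlapping on opposite strands may share reads. All 12 columns were mapped by the names in the labels, and 0 were left over. Symbols matched 52083 gene IDs.

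Genes were filtered with filterByExpr (minimum count 10) and tested with edgeR 4.0.16 in R 4.3.3 (quasi-likelihood F test, robust, TMM, group as the only term, all 12 libraries, 2-sided), with Benjamini-Hochberg adjustment over 15274 genes. SEs are those implied by the F statistic. CPM is counts scaled to 1000000 on tested genes and by TMM factors. Log2 CPM used a prior count of 2. Floors and intervals on counts cover counting error only. No label gives a batch. Replicates differed by at least 38.5 times counting error (chi-square per degree of freedom), and whether the mice were housed or dosed separately is not given.

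Alternatives were DESeq2 1.42.0, limma 3.58.1 voom, RLE size factors, no scaling beyond library totals, no low-count filter, 1 CPM in at least 4 libraries, a fit that was not robust, only the groups compared, a replicate block and each library left out. Leaving out both lean 3 and HFD control 3, and sample quality weights, were chosen after seeing the data. The scripts were tested on simulated data. The members and lists were chosen with earlier results of these data known. Named genes are the 9, Trp53, up to 2 called genes per list and direction, and the 3 most like Cdkn1a. Promoter sequences are from RefSeq.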

Additional observations from a re-analysis of the deposited data

Results flagged for a closer look

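In 5 of the 27 combinations of gene and group, 1 library lay farther from the other 3 than Dixon's limit for 4 samples allows, and all 5 were lean 3. Cdkn1a was at 259 CPM there, against 2.16 to 34.6 CPM in the other lean libraries. Btg2 was at 199 CPM, against 11.6 to 37.0 CPM. Gadd45b was at 11.8 CPM, against 0.548 to 2.01 CPM. Trp53inp1 was at 94.0 CPM, against 32.5 to 42.9 CPM. Mdm2 was at 43.8 CPM, against 33.5 to 35.2 CPM. Chance alone gives about 1 such group in 20, and over all genes tested lean 3 was the far high library for 3.12%. The genes share the library, so the 5 are not independent.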

How the results depend on the processing

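Over 513 refits of the 9 genes' changes, 465 kept their direction and their side of the threshold, 37 changed sign, 7 newly passed and 4 no longer did. The cause was not tested for any of them. Counts of the 9 that passed differed as follows. DESeq2 called 1 lower for NM-FGF19 against HFD control and 1 lower for NM-FGF19 against lean, and sample quality weights called 1 lower for NM-FGF19 against HFD control. For HFD control against lean, 2 were higher with library totals alone and 2 with quality weights, and 0 to 2 without 1 library (0 without HFD control 3, lean 2 or lean 4, and 2 without lean 3). The 1 higher without both lean 3 and HFD control 3 was Trp53inp1, not Phlda3. Signs changed for HFD control against lean as follows. Cdkn1a was at 0.053 with voom, 0.050 without lean 3 and HFD control 3, 0.70 with quality weights and −2.32 to 0.56 without 1 library. Gadd45b was at 0.63 with voom, 0.10 with totals alone, 0.20 with the replicate block, 0.89 without the 2 libraries, 0.96 with quality weights and −0.82 to 1.37 without 1 library. Mdm2 was at 0.31 with totals alone, 0.0043 with no filter, 0.0011 with the strict filter, 0.0043 with only the groups compared, 0.18 without the 2 libraries, 0.17 with quality weights and −0.14 to 0.10 without 1 library. Gadd45a was at 0.26 with totals alone and −0.31 to 0.25 without 1 library, Bax at −0.051 to 0.25 and Trp53 at −0.044 to 0.29. For NM-FGF19 against lean, Trp53inp1 was at 0.019 with voom, 0.15 with totals alone, 0.39 without the 2 libraries, 0.33 with quality weights and −0.25 to 0.39 without 1 library. Gadd45b was at 0.22 and −1.96 to 0.22, Btg2 at 0.15 without the 2 libraries, 0.11 with quality weights and −1.86 to 0.15, Phlda3 at −0.12 to 0.54 and Trp53 at −0.0093 to 0.33 without 1 library. For NM-FGF19 against HFD control, Trp53 was at −0.091 with totals alone, −0.0609 with quality weights and −0.025 to 0.11 without 1 library.

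For HFD control against lean, other p53 pathway genes higher numbered 2, against 5 with DESeq2, 1 with voom and up to 7 over all alternatives, and BCL2 family genes higher 1, against 0 with voom and up to 4. Over all genes, 66, 1272 and 228 were called for NM-FGF19 against HFD control, HFD control against lean and NM-FGF19 against lean, against 285, 2220 and 969 with DESeq2, 51, 1079 and 112 with voom and 38, 480 and 229 without lean 3 and HFD control 3. Totals alone moved the median of all genes by −0.13, 0.31 and 0.18. Replicate numbers do not pair the mice: deviations of same-numbered samples correlated at −0.36 to 0.07. With the replicate block, 18, 593 and 40 genes were called, and Phlda3 kept its call at 1.63 (adjusted p = 0.0455). SEs of Cdkn1a, Btg2 and Gadd45b were 0.77 to 1.22, against 0.13 to 0.14 for Mdm2 and Ccng1 with the same mice. In HFD control against lean without lean 3 they were 0.83, 0.43 and 0.59, against 1.14, 0.79 and 0.82 with it.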

Other observations

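The genes named here are from the lists above and were picked after their values in lean 3 were seen. Btg3, of the same family as Btg2, was at 11.9 CPM in lean 3, against 0.377 to 2.10 CPM in the other lean libraries. Plk3, for a stress-activated kinase, was at 161 CPM, against 14.5 to 32.1 CPM. Gadd45g, the third GADD45 gene, was at 56.4 CPM, against 7.06 to 18.3 CPM. Rrm2, for the ribonucleotide reductase subunit of dividing cells, was at 34.8 CPM, against 3.28 to 7.64 CPM. It does not stand for its list. Of 24 cell cycle genes, 10 were highest in lean 3, beside 31.4% of all genes, and 7 were lowest. Among the lowest was Tk1 at 8.21 CPM, against 15.3 to 34.2 CPM. The glucocorticoid-induced gene Zbtb16 was at 112 CPM, against 6.78 to 29.9 CPM. In the other direction, the clock output gene Dbp was at 4.79 CPM in lean 3, against 6.99 to 135 CPM, and Per3 at 1.27 CPM, against 2.01 to 85.3 CPM. Of 33 other p53 pathway genes, 11 were highest and 8 lowest in lean 3, among the lowest Bbc3 at 6.37 CPM, against 7.64 to 19.7 CPM. Of 13 kinase inhibitors and BTG, TOB and GADD45 relatives, 7 were highest and 1 lowest, namely Cdkn1c at 0.255 CPM, against 0.525 to 0.925 CPM.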
